A study of Mus musculus with 12 samples.

Results

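Mouse embryonic stem cells that had been differentiated for 4 days as embryoid bodies were compared with the undifferentiated cells. The comparison was chosen by sample label and not by any measured value, and it took 4 of the 12 arrays of the series, 2 per group. The cells were of strain 129, and no label describes an engineered allele, a reporter or an agent added to either group. Embryoid bodies (EB) are floating aggregates in which embryonic stem cells differentiate, and the titles of the undifferentiated samples name LIF (leukaemia inhibitory factor). The 2 arrays of a group are labelled as 2 clones, and the submitters describe each time point as 2 separate experiments by different persons. EB day 3 and, for the time course, EB day 1 serve as the nearest earlier stages. The remaining arrays, monolayer cultures at days 1 and 3, were not compared but entered the shared estimate of spread and the filter on dim probes. No label describes a feeder layer, a sort or the serum used.

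Mouse embryonic stem cells kept in LIF resemble the epiblast of the blastocyst, the layer that gives rise to the embryo proper. When LIF is withdrawn and the cells aggregate, they leave this naive state, pass through a state like the epiblast after implantation, and then form cells like those of the primitive streak, the site of gastrulation. BMP, Wnt, Nodal and FGF signals pattern the streak. Its anterior part yields definitive endoderm and node, and its middle and posterior parts yield cardiac, lateral plate, blood and paraxial mesoderm. Bulk RNA averages over all cells of a culture, so fewer cells of a type and less RNA per cell cannot be told apart in any value below.

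Signals are log2 intensities relative to the 75th percentile of the same array, so that 0 marks a probe brighter than 75% of the spots. A gene was called where limma's adjusted p was under 0.05, and errors of changes are standard errors with n = 2 arrays a group. The p-values measure only the spread between these arrays. The EB day 4 arrays had 53.8% and 52.1% of 43379 spots well above background, against 63.1% and 63.8% in undifferentiated cells. Their lowest well-measured signals were -4.40 and -4.16 in EB day 4, against -5.63 and -5.74 in undifferentiated cells, so a gene that becomes weak reaches the detection limit sooner in EB day 4. The 2 EB day 4 arrays correlated at 0.989 across genes and differed at least 2-fold in 5.3% of them, against 0.978 and 11.9% in undifferentiated cells. The EB day 4 arrays differed from the undifferentiated arrays in slide, scanner and scan day, and culture cannot be told apart from these in any difference below. Of 10 spike-in control probes, 4 were brighter in EB day 4, with a mean difference of -0.05 log2 units.

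Of 17726 genes tested, 7234 (40.8%) were called between EB day 4 and undifferentiated cells. There were 3323 higher (18.7%) and 3911 lower (22.1%), and the median change of all genes was -0.04. The arrays of the 2 groups did not overlap for 74% of all genes, and 30.7% were both called and at least 2-fold apart. These shares are the background for the counts of each gene list below. The share of calls that were higher was 45.9%, and it was 58.9% with another background correction (normexp). There were 1299 genes called lower that were not well above background on either EB day 4 array and 258 called higher that were not in undifferentiated cells, and the size of those changes is only a bound. Leaving out 1 array moved the fold by over 1.5 times for 45 of the 164 called genes named below, and where a log2 change is given without array values, its range over such fits follows it. Without EB day 4 replicate 1 there were 4657 calls, and without EB day 4 replicate 2 there were 4694. Of the 13909 genes well above background on all 4 arrays, 5212 were called and 54.4% of those were higher.

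The groups were read at 4 marker genes, which are Hand1, Isl1, Foxa2 and Esrrb. The labels name a culture stage and no cell lineage. The letters below are the first 30 of the 60 bases of the array probe that measured each marker, with its position in the files' mouse build mm9, and they fix which stretch of each gene was read.
Hand1 (chromosome 11, 57642342 to 57642401, minus strand): aaataaaagcgttcccattcgttgctgaat
Isl1 (chromosome 13, 117088774 to 117088833, minus strand): cccccaaagatgtgtatagttattggttaa
Foxa2 (chromosome 2, 147868698 to 147868757, minus strand): ccattctggacatggtgaaatccaggtctc
Esrrb (chromosome 12, 87862389 to 87862448, plus strand): ttctgataatgacgttgtggctggaatgac
Hand1 is a basic helix-loop-helix factor of lateral plate and cardiac mesoderm, and also of trophoblast. Its signal was 3.27 and 3.60 in EB day 4, against -5.01 and -5.05 in undifferentiated cells. Both EB day 4 arrays stood far above both undifferentiated arrays, a 353-fold rise (log2 change 8.46 ± 1.08, adjusted p = 0.000458). Isl1, a LIM homeodomain factor of the second heart field, had 0.07 and 0.68 in EB day 4, against -5.42 and -4.90 in undifferentiated cells. It rose 46.5-fold (log2 change 5.54 ± 0.55, adjusted p = 0.000147) with no overlap between the groups. Foxa2, a forkhead factor of endoderm, node and notochord, had 5.15 and 4.68 in EB day 4, against -1.06 and -1.87 in undifferentiated cells. This was a rise of 83.2-fold (log2 change 6.38 ± 0.68, adjusted p = 0.000201). Esrrb, an orphan nuclear receptor of the naive state, had -3.97 and -2.01 in EB day 4, against 3.30 and 3.65 in undifferentiated cells (log2 change -6.46 ± 0.60, adjusted p = 0.000117). The EB day 4 arrays differed from each other in how far Esrrb fell but both lay far below the undifferentiated arrays.

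The 4 markers were followed over the stages. Hand1 had -6.66 and -6.33 at EB day 1, where neither array was well above background, and -3.00 and 0.96 at EB day 3. Isl1 had -5.42 and -5.28 at EB day 1, again not well above background, and -4.68 and -2.63 at EB day 3. For both genes the EB day 3 arrays lay below the EB day 4 arrays and were far apart from each other. Foxa2 had 2.47 and 0.54 at EB day 1 and 5.50 and 5.15 at EB day 3, so it was high by EB day 3, and its change between EB day 4 and EB day 3 was not called (log2 change -0.41 ± 0.68, adjusted p = 0.728). Esrrb had 2.87 and 2.38 at EB day 1 and 0.90 and -0.02 at EB day 3, and its mean was lower at each later stage.

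**Figure D1:**
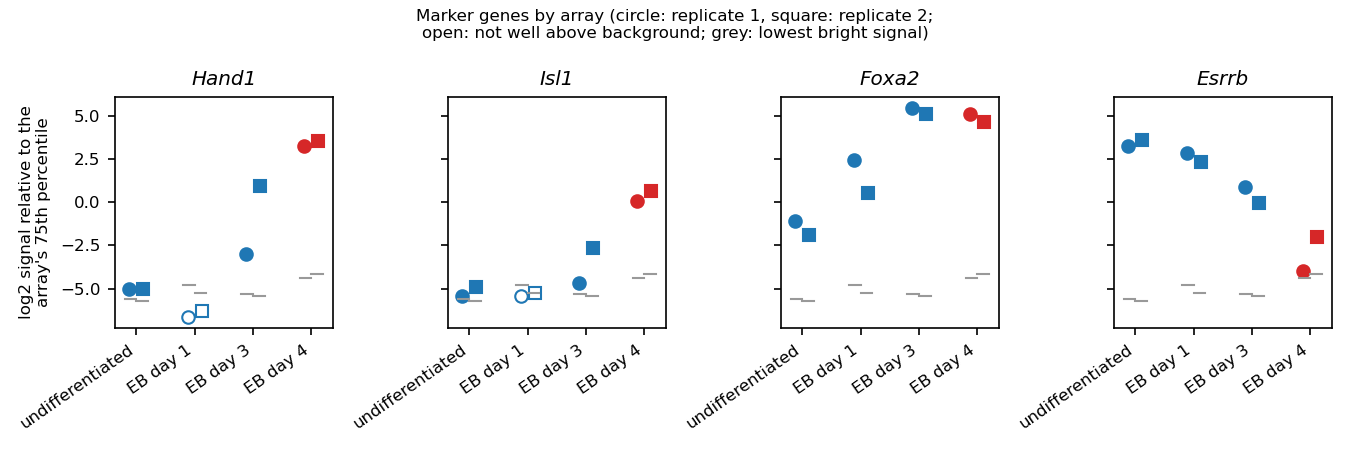
Log2 signal of Hand1, Isl1, Foxa2 and Esrrb relative to the 75th percentile of each array (vertical axis) in undifferentiated cells and at EB days 1, 3 and 4. Each point is 1 array, open points were not well above background, and grey bars give the lowest signal well above background on that array; Hand1 and Isl1 are highest at EB day 4, Foxa2 is high at EB days 3 and 4, and Esrrb is lowest at EB day 4.

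Most genes of the naive pluripotent state were lower in EB day 4. Of the 20 measured genes of the naive state, 19 fell and 1 rose, with a median log2 change of -4.48 against -0.04 over all genes. The 1 that rose was Tbx3, a T-box factor of naive cells and also of mesoderm and extraembryonic endoderm, with 5.43 and 5.01 in EB day 4 and 1.71 and 2.12 in undifferentiated cells (log2 change 3.30 ± 0.87, adjusted p = 0.0151). Its call was lost without undifferentiated replicate 1 or with either EB day 4 array left out, while its change ranged from 3.09 to 3.51. Zfp42, also known as Rex1, had 0.44 and 1.48 in EB day 4 and 6.43 and 5.65 in undifferentiated cells, 33.8-fold lower (adjusted p = 6.99e-05). Spp1, which encodes the secreted protein osteopontin, had -0.60 and 0.01 in EB day 4 and 6.26 and 5.68 in undifferentiated cells, 77-fold lower. In both genes the 2 groups were widely separated. Fbxo15 (-5.61 ± 0.40), the cell adhesion gene Jam2 (-5.59 ± 0.34) and the nuclear receptor gene Nr0b1 (-6.13 ± 0.73, range -7.10 to -5.15) fell too.

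Of 11 measured core pluripotency genes, 7 fell and none rose by the test, with a median change of -3.25. Sox2, which pairs with Oct4 on DNA, had -1.23 and -0.64 in EB day 4 and 3.69 and 3.87 in undifferentiated cells, a fall of 26.2-fold (log2 change -4.71 ± 0.35, adjusted p = 4.78e-05). Nanog had -0.27 and -0.57 in EB day 4 and 3.14 and 3.33 in undifferentiated cells, 12.6-fold lower (adjusted p = 0.000159). Pou5f1, which encodes Oct4 and was named after its values were seen, had 2.24 and 1.64 in EB day 4 and 4.60 and 4.73 in undifferentiated cells. It fell 6.61-fold (log2 change -2.72 ± 0.34, adjusted p = 0.000434), and the groups did not overlap for any of these 3 genes. Utf1 (-4.04 ± 0.55), Dppa2 (-4.08 ± 0.53), Dppa4 (-4.22 ± 0.39) and the Nodal co-receptor gene Tdgf1 (-3.25 ± 0.42) fell too. Sall4, Lin28a, Zfp281 and Foxd3 were not called.

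The LIF receptor acts through the transcription factor STAT3. Of 12 measured LIF and STAT3 response genes, 6 fell, 1 rose and 5 were not called, with a median of -1.68. Socs3, the feedback inhibitor of the pathway, had 1.48 and 1.66 in EB day 4 and 4.64 and 5.36 in undifferentiated cells, 10.8-fold lower (adjusted p = 6.69e-05). Bcl3, a nuclear partner of NF-kappa-B, had -2.20 and -2.17 in EB day 4 and 3.29 and 2.97 in undifferentiated cells (log2 change -5.31 ± 0.26, adjusted p = 2e-05). The kinase genes Pim1 (-3.71 ± 0.31) and Pim3 (-2.47 ± 0.25), Stat3 itself (-1.52 ± 0.21) and Fos (-3.76 ± 0.57, range -4.46 to -3.07) also fell. The gene that rose was Myc, with 2.67 and 2.94 in EB day 4 against 2.07 and -0.70 in undifferentiated cells. The 2 undifferentiated arrays differed more for Myc than the groups did, and its call (adjusted p = 0.0351) was lost without undifferentiated replicate 2 (log2 change 0.74) and with either EB day 4 array left out. Without undifferentiated replicate 1 its change was 3.51.

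Genes of the formative and primed epiblast split. Of 18 measured, 7 rose, 5 fell and 6 were not called, with a median of 0.39. Undifferentiated replicate 1 was the higher of its pair for 17 of the 18, by a median of 0.71 log2 units. Fgf5, a growth factor of the epiblast after implantation, had 3.03 and 2.47 in EB day 4 and -1.08 and -2.99 in undifferentiated cells (log2 change 4.78 ± 0.58, adjusted p = 0.000357). Its EB day 3 signals were 5.11 and 4.33, above both EB day 4 arrays, though that difference was not called (log2 change -1.97 ± 0.58, adjusted p = 0.0543). Zic2, a zinc finger factor, was 3.07-fold higher in EB day 4 than in undifferentiated cells (log2 change 1.62 ± 0.29, adjusted p = 0.00267) but fell relative to EB day 3 (log2 change -2.72 ± 0.29, adjusted p = 0.00224). Sox11 rose 5.99-fold (adjusted p = 0.00018). Etv5, an ETS factor downstream of FGF and ERK, fell 5.59-fold (adjusted p = 0.000434). Called members of this list were 12 in all but 6 with either EB day 4 array left out and 7 without undifferentiated replicate 1.

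Germline genes, several of which embryonic stem cells express, were lower as a group. Of 14 measured, 11 fell, 1 rose and 2 were not called, with a median of -3.09. Stra8, a gene induced at the entry into meiosis, had -6.65 and -4.92 in EB day 4, where neither array was well above background, and 3.02 and 3.44 in undifferentiated cells (log2 change -9.02 ± 0.54, adjusted p = 2.9e-05). Mael (-5.06 ± 0.62), the synaptonemal complex gene Sycp3 (-3.37 ± 0.48, range -4.19 to -2.55), Tex19.1 (-3.96 ± 0.43) and Dppa3 (-4.49 ± 0.69, range -5.53 to -3.44) fell. Prdm1, a transcriptional repressor needed to form germ cells and also made in endoderm, rose 4.45-fold (log2 change 2.15 ± 0.47, adjusted p = 0.0063). Among 8 measured genes of the 2-cell-like state, which marks a small fraction of embryonic stem cells, 5 fell and none rose by the test, with a median of -1.94. Zscan4c was at least 21-fold lower. In EB day 4, 5 of the 8 were not well above background, and no call was left with probes well above background on all 4 arrays. Zscan4c, Usp17la, Tcstv1 and Tcstv3 have close copies, so which copy their probes read is uncertain.

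**Figure D2:**
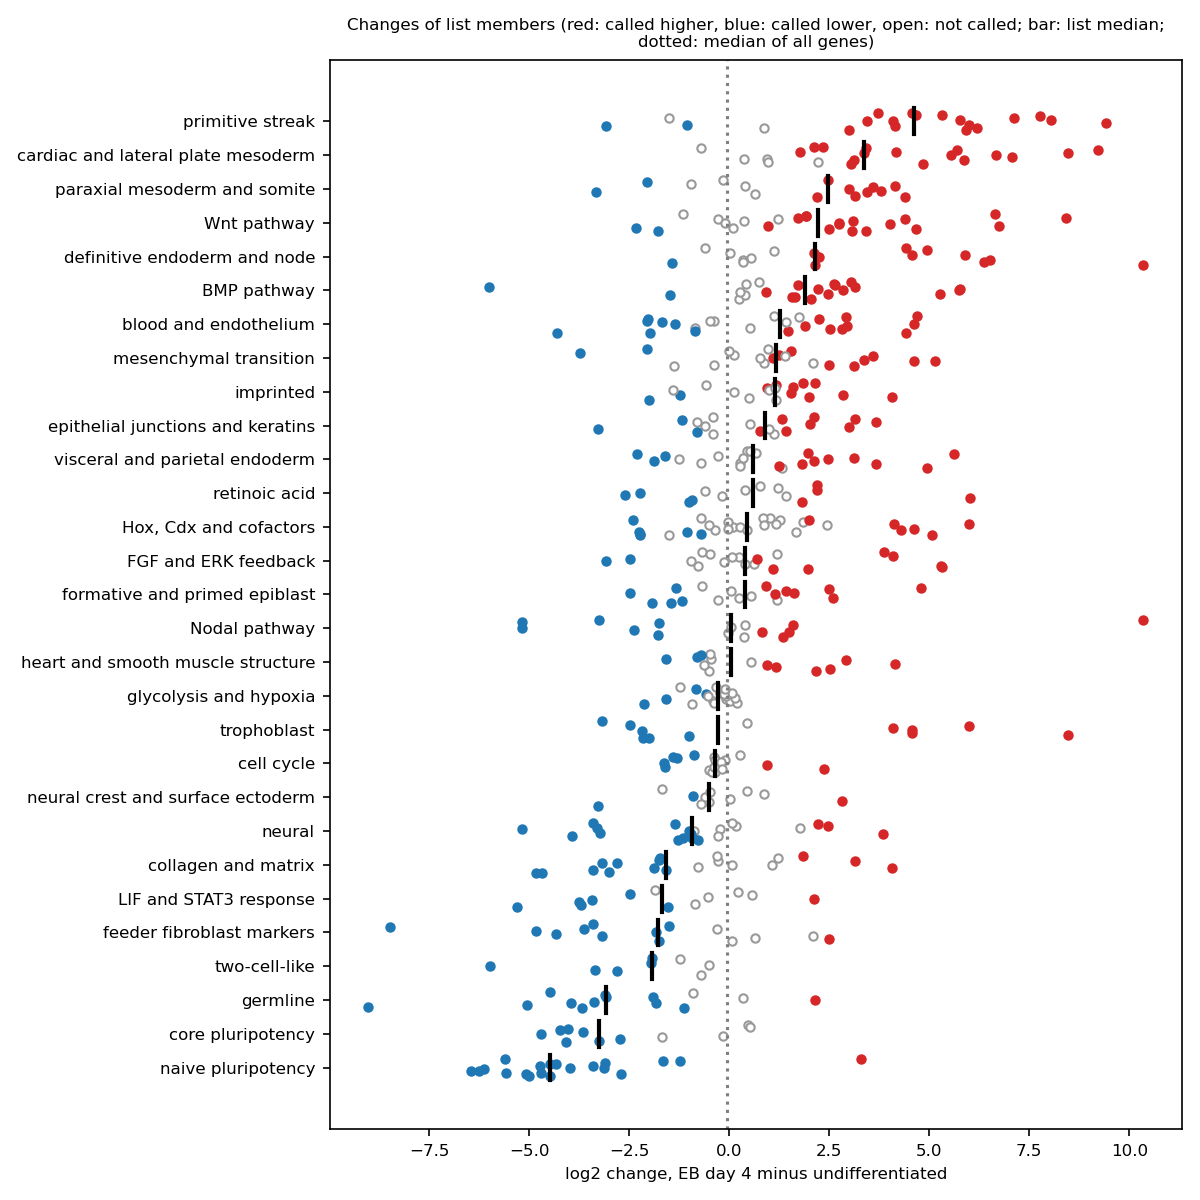
Log2 change of every measured member of 29 gene lists, EB day 4 minus undifferentiated cells (horizontal axis), with lists ordered by their median from the primitive streak at the top (4.62) to naive pluripotency at the bottom (-4.48). Each point is a gene, red called higher, blue called lower and open not called; black bars are list medians and the dotted line is the median of all genes (-0.04).

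Primitive streak genes had the highest median of the 29 lists. Of 20 measured, 16 rose, 2 fell and 2 were not called, with a median of 4.62, against 18.7% of all genes called higher. In undifferentiated cells 2 of the 20 were not well above background. These passed the filter on dim probes only through another group, which favours a rise. Mesp1, a factor of the earliest cardiovascular mesoderm, had 5.40 and 4.86 in EB day 4, against -4.16 and -4.40 in undifferentiated cells, 679-fold higher (log2 change 9.41 ± 0.68, adjusted p = 4.32e-05). Lhx1 had 4.55 and 3.74 in EB day 4, against -3.30 and -3.93 in undifferentiated cells, a rise of 217-fold (adjusted p = 4.32e-05). Evx1, a homeobox factor of the posterior streak, had 2.63 and 1.67 in EB day 4 and was not well above background in undifferentiated cells, at least 227-fold higher. In all 3 genes both EB day 4 arrays stood far above both undifferentiated arrays. Mixl1 (at least 30.5-fold, not well above background in undifferentiated cells), Gsc of the organizer (6.19 ± 0.59), Cdx2 (5.99 ± 0.55, range 5.41 to 6.58), Fgf3 (5.32 ± 0.57), Wnt3 (4.67 ± 0.44) and Fgf8 (4.10 ± 0.46) rose as well. T (Brachyury), the T-box factor of the streak, was named after its values were seen. T had 2.11 and 1.23 in EB day 4, 2.00 and 2.20 in EB day 3 and -3.67 and -4.51 in undifferentiated cells, 54.3-fold higher than in undifferentiated cells (adjusted p = 0.000224). Eomes had 2.38 and 0.98 in EB day 4, 3.26 and 3.20 in EB day 3 and -2.78 and -2.99 in undifferentiated cells, and its change from EB day 3 was not called (log2 change -1.55 ± 0.59, adjusted p = 0.115). Fgf17 fell 8.44-fold (adjusted p = 8.01e-05), and Nkx1-2 was called lower by its brightest probe, which was not well above background on either EB day 4 array, against another probe described below. The Nkx1-2 call was lost without undifferentiated replicate 1 or EB day 4 replicate 2.

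The start regions of 3 genes that rose are shown because each is known as a gene of mesoderm or of Wnt feedback, and all were searched for letters bound by T-box, TCF/LEF and GATA factors. The sequences are RefSeq's, on build GRCm38.p6, from 250 bases before to 50 after the annotated start, read 5′ to 3′ on the minus strand for each gene, and capitals mark matches on either strand. The letters searched were GGTGTGA for the T-box (in 3.98% of 32851 mouse start regions of this length), CTTTGAA for TCF/LEF (5.14%) and AGATAA for GATA (11.2%). None of the 3 overlapped another. A match says only that these letters occur there.
Mesp1 (chr7:79793541-79793840): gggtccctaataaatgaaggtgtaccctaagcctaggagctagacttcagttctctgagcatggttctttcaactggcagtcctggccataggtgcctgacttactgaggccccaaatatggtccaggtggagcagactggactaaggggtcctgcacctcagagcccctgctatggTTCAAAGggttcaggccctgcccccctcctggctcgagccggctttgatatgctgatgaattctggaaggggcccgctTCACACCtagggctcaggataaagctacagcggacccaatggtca
Dkk1 (chr19:30549447-30549746): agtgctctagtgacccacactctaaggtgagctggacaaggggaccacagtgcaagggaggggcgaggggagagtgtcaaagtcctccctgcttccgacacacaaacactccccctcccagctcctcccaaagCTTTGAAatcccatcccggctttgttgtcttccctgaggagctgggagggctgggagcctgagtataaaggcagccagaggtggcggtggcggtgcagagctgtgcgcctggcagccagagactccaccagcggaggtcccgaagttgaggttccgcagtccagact
Isl1 (chr13:116309639-116309938): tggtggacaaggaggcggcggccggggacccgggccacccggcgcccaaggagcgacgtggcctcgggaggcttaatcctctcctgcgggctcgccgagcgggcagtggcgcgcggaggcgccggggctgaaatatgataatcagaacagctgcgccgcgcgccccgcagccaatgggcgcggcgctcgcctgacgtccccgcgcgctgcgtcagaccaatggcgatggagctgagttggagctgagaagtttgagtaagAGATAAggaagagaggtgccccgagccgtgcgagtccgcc
The Mesp1 region held 1 TCF/LEF match that starts 73 bases before the annotated start and 1 T-box match that starts 5 bases after it, both as the reverse complement. The Dkk1 region held 1 TCF/LEF match 117 bases before the start, and the Isl1 region held 1 GATA match 10 bases after it. Dkk1, a secreted Wnt antagonist, had 3.69 and 3.24 in EB day 4 and -3.42 and -3.12 in undifferentiated cells, 106-fold higher (log2 change 6.73 ± 0.59, adjusted p = 9.39e-05).

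Some endoderm genes rose in EB day 4. Of 17 measured genes of definitive endoderm and node, 10 rose, 1 fell and 6 were not called, with a median of 2.15. Cer1, whose secreted product blocks BMP, Wnt and Nodal ligands in anterior endoderm, had 3.21 and 2.31 in EB day 4. It was not well above background in undifferentiated cells and was at least 348-fold higher (log2 change 10.35 ± 0.58, adjusted p = 2.36e-05). Sox17, the SRY-box factor of endoderm, had 3.70 and 3.43 in EB day 4 and -2.35 and -2.30 in undifferentiated cells, 59.2-fold higher (adjusted p = 9.46e-05). The groups did not overlap for either gene. The chemokine receptor gene Cxcr4 (6.51 ± 0.61, range 5.86 to 7.17), Gata6 (4.94 ± 0.45, with a second probe that fell) and Foxa1 (at least 23.7-fold, from a signal not well above background in undifferentiated cells) rose. With probes well above background on all 4 arrays only, 7 members were called and 6 of them were higher. Of 22 measured genes of visceral and parietal endoderm, 9 rose, 3 fell and 10 were not called, with a median of 0.59. Pth1r, the parathyroid hormone receptor gene of parietal endoderm, rose 12.8-fold (log2 change 3.68 ± 0.42, adjusted p = 0.000273), and Sox7 rose 5.51-fold (adjusted p = 0.00589). Fgb, which encodes a fibrinogen chain, had -2.68 and -0.96 in EB day 4 and was not well above background in undifferentiated cells (log2 change 5.61 ± 0.68, adjusted p = 0.000373, range 4.75 to 6.47). Afp, Hnf4a, Apob and Apoe, genes of mature visceral endoderm, were among those not called, whereas Trf, the transferrin gene, fell 3.7-fold (adjusted p = 0.000523).

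Genes of cardiac and lateral plate mesoderm, which include the markers Hand1 and Isl1, had the second highest median. Of 21 measured, 16 rose, none fell by the test and 5 were not called, with a median of 3.37. Of the 21, 5 were not well above background on either undifferentiated array. Those 5 passed the filter on dim probes only through another group, which favours a rise. Wnt2, a ligand of the early heart field and vasculature, had 2.05 and 1.46 in EB day 4 and was not well above background in undifferentiated cells, at least 174-fold higher (log2 change 9.22 ± 0.90, adjusted p = 0.000138). Msx2, a BMP-responsive homeobox gene, had 3.68 and 3.70 in EB day 4 and -3.53 and -3.19 in undifferentiated cells, 133-fold higher (adjusted p = 0.000261). Tbx20, a T-box factor of the heart, had -1.35 and -0.68 in EB day 4 and was at least 25.4-fold higher. Each of these separated the groups. Msx1 (5.69 ± 0.32) rose too, and so did Hand2, which was not well above background in undifferentiated cells (log2 change 5.86 ± 1.01, adjusted p = 0.00198, range 5.26 to 6.46). Nkx2-5, the homeobox factor of cardiac progenitors, was named after its values were seen. Nkx2-5 had -1.53 and -1.09 in EB day 4 and -3.45 and -2.73 in undifferentiated cells (log2 change 1.78 ± 0.50, adjusted p = 0.0197), a call that was lost without undifferentiated replicate 1 or either EB day 4 array. Tbx5, Mef2c, Foxf2 and Hopx were among those not called.

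**Figure D3:**
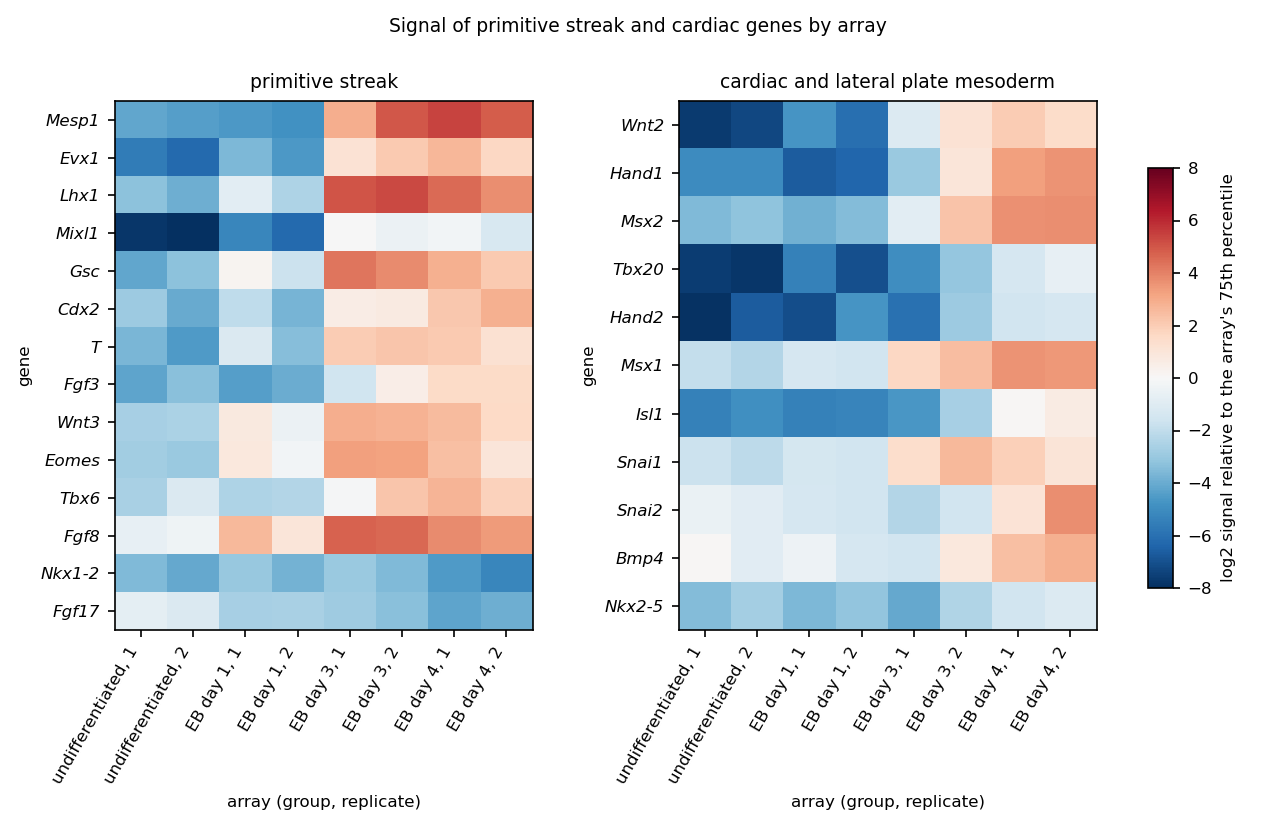
Log2 signal relative to the 75th percentile of each array (colour) for the primitive streak genes and the cardiac and lateral plate genes whose values are given in the text (rows, ordered by the change between EB day 4 and undifferentiated cells) in 8 arrays from undifferentiated cells to EB day 4 (columns). Most streak genes are red from EB day 3 on, whereas Hand1, Msx2, Tbx20 and Isl1 are brightest in the 2 EB day 4 arrays.

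Genes of the contractile apparatus did not move together. Of 14 measured genes of heart and smooth muscle structure, 6 rose, 3 fell and 5 were not called, with a median of 0.04. Those that fell include Myl3, called lower by its brightest probe (-0.70) and higher by another (4.15), as described below. Myl7, the atrial myosin light chain gene, had 3.86 and 3.25 in EB day 4 and 0.86 and 1.22 in undifferentiated cells, 5.74-fold higher (adjusted p = 0.00124). Tnnc1, the slow and cardiac troponin C gene, had -0.85 and 0.26 in EB day 4 and -4.97 and -3.89 in undifferentiated cells, 17.5-fold higher (adjusted p = 0.00181). Myh7, a myosin heavy chain gene, rose 7.54-fold (adjusted p = 0.000323). All 3 were higher in both EB day 4 arrays. Myh6, Actc1, Ttn, Myl4 and Acta2 were not called. Tnnt2, the cardiac troponin T gene, was lower in EB day 4, with -2.61 and -1.64, than in undifferentiated cells, with 0.14 and -1.24 (adjusted p = 0.0328). The Tnnt2 call was lost without undifferentiated replicate 1 (log2 change -0.88) and without EB day 4 replicate 1, and Tnnt2 was higher in EB day 4 than in EB day 3 (log2 change 3.06 ± 0.50, adjusted p = 0.0081). Called members numbered 9, but 5 without undifferentiated replicate 1, without EB day 4 replicate 1 or with the 4 arrays fitted alone.

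Of 24 measured blood and endothelial genes, 10 rose, 7 fell and 7 were not called, with a median of 1.27. Kdr, the VEGF receptor gene of mesodermal progenitors, had 4.03 and 3.36 in EB day 4 and -0.65 and -1.33 in undifferentiated cells, 25.7-fold higher (adjusted p = 0.00483). Flt1, another VEGF receptor gene, rose 24.6-fold (log2 change 4.62 ± 0.30, adjusted p = 3.6e-05). Tal1, the factor needed for blood formation, had 0.49 and 1.56 in EB day 4 and -1.98 and -1.88 in undifferentiated cells, 7.74-fold higher. Both groups were separate in each case. Etv2 (2.81 ± 0.60, range 1.96 to 3.66) and Lyl1 (2.92 ± 0.45, range 2.29 to 3.54) rose. Hbb-bh1, an embryonic globin gene, had -0.64 and 2.50 in EB day 4 and -3.34 and -3.65 in undifferentiated cells (log2 change 4.43 ± 0.87, adjusted p = 0.00385). Its 2 EB day 4 arrays were far apart, and the change was 2.86 without EB day 4 replicate 2. Of genes of formed vessels, Tek and Tie1, receptors of endothelium, and Cd34 (-4.29 ± 0.58, range -5.13 to -3.45) fell. Tek and Tie1 were not well above background on either EB day 4 array, and their calls were lost with the other background correction. Cdh5, Erg, Egfl7 and Fli1 were not called.

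Of 15 measured genes of paraxial mesoderm and somites, 9 rose, 2 fell and 4 were not called, with a median of 2.46. Tbx6, the factor of presomitic mesoderm, had 2.70 and 1.85 in EB day 4 and -2.61 and -1.15 in undifferentiated cells (log2 change 4.16 ± 0.69, adjusted p = 0.00168). Dll3, a Notch ligand gene, rose 10.9-fold (adjusted p = 0.00108), and Aldh1a2, the retinoic acid synthesis gene, rose 4.56-fold (adjusted p = 0.00154). Tcf15, a factor of somites that embryonic stem cells also express, fell (log2 change -3.32 ± 0.60, adjusted p = 0.00249, range -4.04 to -2.60), with no overlap between the groups.

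Neural genes moved mostly the other way. Of 21 measured, 12 fell, 3 rose and 6 were not called, with a median of -0.93. Pax6 was not well above background on either EB day 4 array, had -1.09 and -1.66 in undifferentiated cells, and was at least 7.49-fold lower (log2 change -5.19 ± 0.52, adjusted p = 0.000152). Hes5, a Notch target of neural progenitors, fell 15.4-fold and Nkx6-2 fell 9.95-fold. Sox1, the early neural marker, was not called (log2 change -0.29 ± 0.24, adjusted p = 0.362) and was not well above background on either EB day 4 array. Fabp7 (3.86 ± 0.55, range 3.00 to 4.71) and Lhx2 (2.21 ± 0.41) rose. In EB day 4, 7 of the 21 were not well above background. Of 11 measured neural crest and surface ectoderm genes, 8 were not called, 1 rose and 2 fell. Of 12 measured trophoblast genes, 5 rose, 6 fell and 1 was not called. The 5 include Cdx2, Eomes and Hand1, which mesoderm also expresses, beside Gata3 (4.11 ± 0.77) and Plac1, with -0.20 and 0.89 in EB day 4 and -3.45 and -5.02 in undifferentiated cells. The 6 that fell include Tfap2c (-2.17 ± 0.45) and Esx1 (-3.18 ± 0.50, range -3.86 to -2.50).

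Signalling genes were read by role. Of 22 measured genes of the BMP pathway, 15 rose, 2 fell and 5 were not called, with a median of 1.89. In undifferentiated cells 2 of the 22 were not well above background. Among ligands, Bmp2 was not well above background in undifferentiated cells and rose at least 27.6-fold (log2 change 5.27 ± 0.66, adjusted p = 0.000425). Bmp4 had 2.38 and 2.87 in EB day 4 and 0.09 and -0.92 in undifferentiated cells (adjusted p = 0.00895), a call that was lost without undifferentiated replicate 2 or EB day 4 replicate 2. Smad1, a transducer of BMP signals, rose 7.15-fold (adjusted p = 0.000309), and Bambi, a decoy receptor induced by BMP, rose 8.9-fold (adjusted p = 0.000109). Grem1, a secreted BMP antagonist, fell and was not well above background on either EB day 4 array (log2 change -6.00 ± 0.86, adjusted p = 0.000815, range -6.89 to -5.10).

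Of 24 measured genes of the Wnt pathway, 16 rose, 2 fell and 6 were not called, with a median of 2.21. In undifferentiated cells 3 of the 24 were not well above background. Besides Dkk1, Lgr5, the R-spondin receptor gene and Wnt target, had 0.86 and 0.93 in EB day 4 and was not well above background in undifferentiated cells. It was at least 95.7-fold higher (log2 change 8.42 ± 0.45, adjusted p = 2.07e-05). The Wnt ligand gene Wnt3 rose 25.5-fold, the feedback inhibitor gene Nkd1 16.1-fold (adjusted p = 0.00016), and the R-spondin gene Rspo3 at least 7.01-fold. Frzb, a secreted Wnt antagonist, had 1.61 and 1.07 in EB day 4 and -3.75 and -6.89 in undifferentiated cells, where 1 array was well above background (log2 change 6.66 ± 0.85, adjusted p = 0.000454), and its change ranged from 5.09 to 8.23 with an array left out. Fzd5, a receptor gene, fell 5.04-fold (adjusted p = 0.000126).

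Of 15 measured genes of the Nodal pathway, 5 rose, 6 fell and 4 were not called, with a median of 0.04. The 6 that fell were the ligand Nodal, the ligand Gdf3, the feedback inhibitors Lefty1 and Lefty2, the co-receptor Tdgf1 and the convertase Pcsk6. Lefty1 had -0.60 and -0.26 in EB day 4 and 4.81 and 4.70 in undifferentiated cells, 36.3-fold lower (log2 change -5.18 ± 0.68, adjusted p = 0.000539). Nodal had 1.31 and 0.92 in EB day 4 and 3.15 and 2.59 in undifferentiated cells, 3.37-fold lower (adjusted p = 0.00327). The arrays of the groups did not overlap for either. Besides Cer1, those that rose were receptors or a transducer, Acvr2a (1.61 ± 0.26), Acvr2b (0.81 ± 0.24), Acvr1b (1.34 ± 0.34) and Smad3 (1.49 ± 0.35). The calls of Acvr2b and Acvr1b were lost without undifferentiated replicate 1 or either EB day 4 array, and that of Smad3 without undifferentiated replicate 2 or EB day 4 replicate 2. A second Acvr1b probe fell, as described below.

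Of 19 measured FGF and ERK feedback genes, 7 rose, 2 fell and 10 were not called, with a median of 0.40. Fgf3 rose 40-fold, Fgf10 39.6-fold and Fgf8 17.1-fold. Fgfr2, a receptor gene, rose 3.93-fold (adjusted p = 0.00226) and the other 3 receptor genes were not called. In the retinoic acid list, 4 rose, 4 fell and 6 were not called of 14. Cyp26a1, which breaks retinoic acid down, had 4.52 and 3.92 in EB day 4 and -1.14 and -2.43 in undifferentiated cells (log2 change 6.01 ± 0.68, adjusted p = 0.000255), and the receptor gene Rarg fell 6.12-fold (adjusted p = 0.000329).

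Of 29 measured Hox, Cdx and cofactor genes, 6 rose, 6 fell and 17 were not called, with a median of 0.45. The share called, 41.4%, was close to the 40.8% of all genes. Undifferentiated replicate 1 was the higher of its pair for 25 of the 29, by a median of 0.96 log2 units. Among the 6 that rose were Cdx2 and Hox genes of the early, 3′ paralog groups. Hoxb3 had 0.51 and 0.25 in EB day 4 and -3.41 and -4.40 in undifferentiated cells, 19.6-fold higher (log2 change 4.29 ± 0.41, adjusted p = 0.00013). Hoxb1 had 0.14 and -0.54 in EB day 4 and -3.33 and -6.30 in undifferentiated cells, where 1 array was well above background (log2 change 4.61 ± 1.00, adjusted p = 0.00621), and its change ranged from 3.12 to 6.10 with an array left out. Hoxd1 (5.06 ± 0.62, range 4.38 to 5.75) rose, and so did Hoxb2 (4.13 ± 1.25, range 3.25 to 5.01), whose call was lost without undifferentiated replicate 2 or either EB day 4 array. Hoxa4, Hoxa5 and Hoxb13 were called lower but were not well above background on either EB day 4 array, as were 8 of the 29 in all. With probes well above background on all 4 arrays only, 7 members were called. The calls of Hoxa4, Hoxa5, Hoxb13, Hoxb6 and Hoxc4 were lost with the other background correction. Hoxb6 was counted as lower by its brightest probe (-1.05), while another of its probes was called higher (4.11), as described below.

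Among 18 measured imprinted genes, 9 rose, 2 fell and 7 were not called, with a median of 1.15. Igf2, the paternally expressed growth factor gene, had 5.81 and 7.11 in EB day 4 and 2.08 and 2.69 in undifferentiated cells (log2 change 4.08 ± 0.70, adjusted p = 0.00196). Peg3 rose 7.19-fold, Mest 3.01-fold and Grb10 3.6-fold (adjusted p = 0.00293, 0.00114 and 0.0042). H19, which shares control sequences with Igf2, was not called. Called members numbered 11, but 6 without undifferentiated replicate 1 and 7 with either EB day 4 array left out.

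Epithelial and mesenchymal genes both included members that rose. Of 18 measured genes of epithelial junctions and keratins, 8 rose, 3 fell and 7 were not called, with a median of 0.89. Undifferentiated replicate 1 was the higher of its pair for 3 of the 18, and its median difference from replicate 2 was -0.83. Krt8, a keratin of simple epithelia, had 7.07 and 7.46 in EB day 4 and 3.45 and 3.73 in undifferentiated cells, 12.7-fold higher (adjusted p = 0.000818). Its partner Krt18 had 7.20 and 7.47 in EB day 4 and 3.89 and 4.79 in undifferentiated cells, 7.98-fold higher (adjusted p = 0.00279). Both keratins were far brighter on both EB day 4 arrays. Cdh1, the E-cadherin gene, was named after its values were seen and was not called, with 3.61 and 3.61 in EB day 4 and 4.03 and 4.02 in undifferentiated cells (adjusted p = 0.212). Of 20 measured genes of the mesenchymal transition, 9 rose, 2 fell and 9 were not called, with a median of 1.18. Undifferentiated replicate 1 was the higher of its pair for 17 of these 20, by a median of 0.82. Cdh2, the N-cadherin gene, had 2.72 and 2.06 in EB day 4 and -1.95 and -3.55 in undifferentiated cells (log2 change 5.14 ± 0.55, adjusted p = 0.000195). Snai1, a repressor of E-cadherin, rose 10.4-fold (adjusted p = 0.000302), and Zeb2 rose 5.63-fold (adjusted p = 0.00395). Vim, Fn1, Zeb1 and Twist1 were not called. Called members of the epithelial list numbered 7 without EB day 4 replicate 1, against 11 in all, and those of the mesenchymal list 6 without EB day 4 replicate 2, against 11.

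Genes of fibroblasts and of their matrix were mostly lower in EB day 4. Of 14 measured fibroblast markers, 9 fell, 1 rose and 4 were not called in EB day 4, with a median of -1.79. Of 19 measured collagen and matrix genes, 10 fell, 3 rose and 6 were not called, with a median of -1.58. The summed linear signal of the fibroblast list, in units of each array's 75th percentile, was 25.2 and 31.3 in EB day 4, against 180.6 and 56.9 in undifferentiated cells. S100a4, given below, was the largest single part of both undifferentiated sums, so the sums do not weigh the markers evenly. Undifferentiated replicate 1 was the higher of its pair for 13 of the 14, by a median of 1.15 log2 units, and for 18 of the 19 matrix genes, by a median of 0.95. Dcn, the matrix proteoglycan decorin, was not well above background on either EB day 4 array, had 0.97 and 0.02 in undifferentiated cells, and was at least 27.1-fold lower (log2 change -4.84 ± 0.59, adjusted p = 0.00037). Timp1, an inhibitor of matrix proteases, fell 12.3-fold. S100a4 had -3.00 and -2.65 in EB day 4 and 6.78 and 4.55 in undifferentiated cells (log2 change -8.49 ± 0.70, adjusted p = 7.54e-05). Col1a2 (-3.19 ± 0.45, range -3.82 to -2.56) and Col3a1 (-3.41 ± 0.56, range -4.29 to -2.54) fell, whereas Fbn2, the fibrillin 2 gene, rose 16.9-fold (adjusted p = 0.000174). The part of fibroblast RNA in the genes called lower was not tested.

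The 12 largest increases and 12 largest decreases were taken from called genes with separate groups. The size of a change is only a bound for a gene not well above background in 1 group, so the genes are given in no order of size. The increases were Cer1, Defa31, Evx1, Hand1, Lgr5, Lhx1, Lhx1os, Mesp1, Pilrb1, Prdm6, Rgs5 and Wnt2, of which Defa31, Hand1, Lhx1 and Mesp1 were well above background on both undifferentiated arrays. Prdm6, a transcription regulator of smooth muscle, had 4.63 and 4.87 in EB day 4 and was not well above background in undifferentiated cells, at least 1383-fold higher (log2 change 11.15 ± 1.03, adjusted p = 0.000116). Rgs5, a regulator of G protein signalling known from pericytes, had 1.77 and 1.16 in EB day 4 and was at least 142-fold higher (log2 change 9.04 ± 0.87, adjusted p = 0.000129). Lhx1os is named as a transcript of the strand opposite to Lhx1, and it was at least 243-fold higher. Defa31 belongs to a family of near-identical defensin genes, so which copy its probe read is uncertain. Among the decreases were Cavin2, Esrrb, Ifi202b, Khdc3, Msln, Myo1f, Nphs1, Prl2c5, S100a4, Stra8 and Tm4sf1, of which Esrrb and S100a4 were well above background on both EB day 4 arrays and Cavin2 and Khdc3 on 1. Msln, the surface protein mesothelin, had 4.11 and 2.03 in undifferentiated cells and was not well above background on either EB day 4 array (log2 change -9.24 ± 0.70, adjusted p = 5.37e-05, range -10.28 to -8.21). Tm4sf1 likewise was not well above background on either EB day 4 array, with 4.18 and 1.65 in undifferentiated cells (log2 change -9.40 ± 0.89, adjusted p = 0.000125, range -10.66 to -8.14). For Msln, Tm4sf1, Cavin2, Prl2c5 and S100a4 the undifferentiated arrays differed by more than 2 log2 units, with replicate 1 higher, as for the fibroblast list. Khdc3, a maternal factor of the oocyte and early embryo, had -6.09 and -4.02 in EB day 4 and 2.24 and 1.42 in undifferentiated cells (log2 change -6.89 ± 0.80, adjusted p = 0.000296). Prl2c5 has close copies.

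The share called was 38.9% for cell cycle genes and 20% for glycolysis and hypoxia genes, against 40.8% of all genes. Of 18 measured cell cycle genes, 11 were not called, 5 fell and 2 rose, with a median of -0.36. Top2a fell 2.65-fold and Ccnb1 3.02-fold (adjusted p = 0.00144 and 0.000976), while Mki67 and Pcna were not called. Called members numbered 7, but 3 with either EB day 4 array left out. Of 20 measured glycolysis and hypoxia genes, 16 were not called and 4 fell, with a median of -0.28. Undifferentiated replicate 1 was the higher of its pair for 1 of the 20, and its median difference from replicate 2 was -0.72, larger than the change between the groups. The 4 were Pdk1 (-2.12 ± 0.47), Pfkp (-1.57 ± 0.31), Eno1 (-0.83 ± 0.30) and Car9 (-0.58 ± 0.19), and the calls of Eno1 and Car9 were lost without undifferentiated replicate 2 or either EB day 4 array.

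Genes with several probes were read for agreement. Of 6154 genes with at least 2 kept probes, 59.9% changed in the same direction by all of them (exact 95% binomial interval 58.7% to 61.2%, over genes). The interval treats genes as independent although all were read on the same arrays. No share for probes of random direction was computed beside it. The share was 72.0% among 2388 called genes and 79.2% among 1641 that were also at least 2-fold apart. In 308 genes, probes were called in opposite directions. Of the listed genes, 155 had at least 2 probes, 124 agreed in direction, and of 102 called 90 agreed. There were 7 listed genes with opposite calls. In 5 of them the brightest probe, which stands for the gene above, was called lower and another was called higher. They include Hoxb6 (-1.05 and 4.11), Myl3 (-0.70 and 4.15), Nkx1-2 (-1.07 and 3.11) and Runx1 (-0.85 and 2.62). In the other 2, Gata6 (4.94 and -1.19) and Acvr1b (1.34 and -1.58), the brightest probe rose. So for Runx1, the factor of definitive blood, which was named after its values were seen, and Myl3, a ventricular myosin light chain gene, the direction depends on the probe.

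The pairs of opposing probes are shown for Myl3 and Hoxb6, as the first 30 of 60 bases each, because their directions differ within a gene.
Myl3, called lower: ctgcacctgcagctgcacctgcggctgcac
Myl3, called higher: gagaaactgatggctggtcaagaggactcc
Hoxb6, called lower: ggtgctatttgacaattcctgcctctgcca
Hoxb6, called higher: tcgagtctcatttcgtccatgtcccccgtg
The Myl3 probe called lower (mm9 chromosome 9, 110666325 to 110666384) had -1.25 and -1.50 in EB day 4, against -0.60 and -0.75 in undifferentiated cells. The Myl3 probe called higher (110671632 to 110671926) had 0.49 and 1.00 in EB day 4, against -4.60 and -2.20 in undifferentiated cells. The Hoxb6 probe called lower (chromosome 11, 96160281 to 96160340) had -3.25 and -3.01 in EB day 4, against -2.07 and -2.09 in undifferentiated cells. The Hoxb6 probe called higher (96162563 to 96162622) had -0.86 and 1.40 in EB day 4, against -2.84 and -4.83 in undifferentiated cells. In both genes the change of the probe called lower was the smaller. Klf2, named after its values were seen, fell by both probes but by unequal amounts (-1.22 and -5.06), and for Esrrb the second probe did not pass the test (log2 change -2.14, adjusted p = 0.106).

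**Figure D4:**
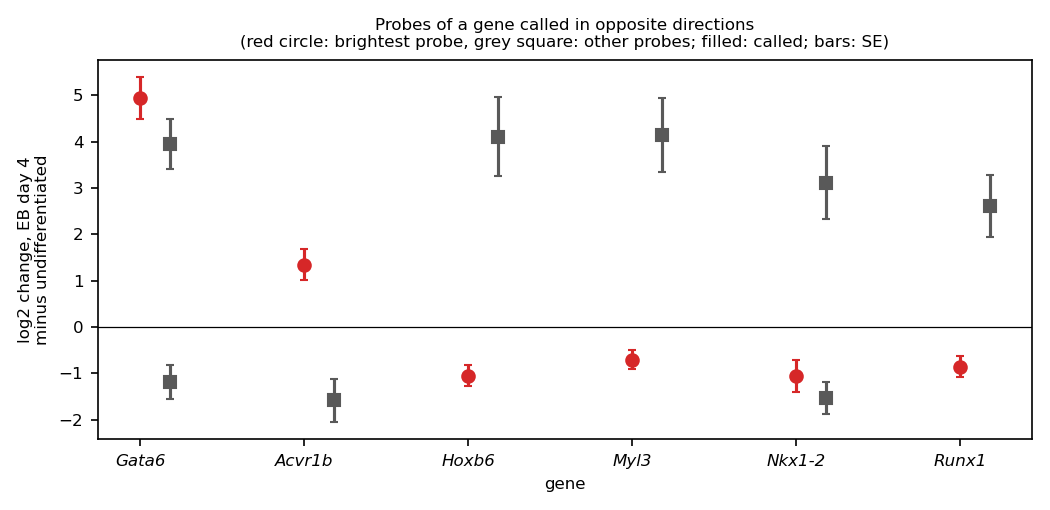
Log2 change between EB day 4 and undifferentiated cells (vertical axis) by probe for 6 listed genes whose probes were called in opposite directions. Red circles are the brightest probe of the gene, grey squares its other probes, and bars are standard errors; in Hoxb6, Myl3, Nkx1-2 and Runx1 the brightest probe lies below 0 while another lies above it.

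EB day 4 was also set against EB day 3, the nearest earlier stage of the same culture format, which lay on another slide, scanner and scan day. Of 17726 genes, 2254 (12.7%) were called, 689 higher (3.89%) and 1565 lower (8.83%), with a median change of -0.09. The share of calls that were higher was 30.6%, and it was 59% with the other background correction. The calls rest on few arrays. Leaving out EB day 3 replicate 1 gave 337 calls, leaving out EB day 4 replicate 1 gave 857, and leaving out its replicate 2 gave 564. A fit of the 4 arrays alone gave 239. The EB day 3 arrays differed at least 2-fold from each other in 8.26% of genes, and the arrays of EB day 4 and EB day 3 did not overlap in 67.8%.

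Cardiac and lateral plate genes were higher in EB day 4 than in EB day 3. Of 21 measured, 12 rose and none fell by the test, against 3.89% of all genes called higher, with a median of 2.92. Hand1 had 3.27 and 3.60 in EB day 4 and -3.00 and 0.96 in EB day 3 (log2 change 4.45 ± 1.08, adjusted p = 0.0303). Isl1 had 0.07 and 0.68 in EB day 4 and -4.68 and -2.63 in EB day 3 (log2 change 4.03 ± 0.55, adjusted p = 0.00451). Both genes were higher on both EB day 4 arrays, but the EB day 3 arrays were far apart, and the Hand1 change was 2.47 without EB day 3 replicate 1. Nkx2-5 (1.94 ± 0.50), Tbx20 (3.01 ± 0.67), Snai2 (4.35 ± 0.79) and Bmp4 (2.97 ± 0.72) were among the 12. The number of called members of the list was 4 when EB day 3 replicate 1 was left out and 14 when its replicate 2 was. It was 5 when EB day 4 replicate 1 was left out and 4 when its replicate 2 was, all of them higher. It was 0 when the 4 arrays were fitted alone. Of the 6 genes given here, Isl1 alone kept its call when each array was left out in turn, with changes of 3.00 to 5.05.

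Primitive streak genes did not move as a group between these stages, with 1 higher, 2 lower and 17 not called, and a median of -0.47. Hox, Cdx and cofactor genes had 9 higher and 1 lower of 29, with 1 called without EB day 3 replicate 1 and none without EB day 4 replicate 2. Hoxb2 (4.54 ± 1.25) and Hoxd1 (3.06 ± 0.62) were among them. Blood and endothelial genes had 5 higher and none lower by the test of 24, among them Tal1 (2.01 ± 0.48), and none was called without EB day 4 replicate 2. Genes of the contractile apparatus had 5 higher and 2 lower of 14, with Myh7 (2.49 ± 0.35), Tnni1 (3.28 ± 0.53) and Tnnc1 (2.47 ± 0.70) among those that rose. Tnnc1 was near the threshold (limma adjusted p = 0.0487), with -0.85 and 0.26 in EB day 4 and -3.50 and -2.04 in EB day 3. Those called lower include Myl3, by its brightest probe. Its other probe had 0.49 and 1.00 in EB day 4 and -1.51 and -0.50 in EB day 3.

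Of 11 core pluripotency genes, 7 were lower in EB day 4 than in EB day 3 and none was higher by the test, against 8.83% of all genes called lower, with a median of -1.94. Sox2 had -1.23 and -0.64 in EB day 4 and 2.65 and 1.56 in EB day 3 (log2 change -3.04 ± 0.35, adjusted p = 0.0025), and Nanog had -0.27 and -0.57 in EB day 4 and 2.16 and 1.40 in EB day 3 (log2 change -2.20 ± 0.37, adjusted p = 0.009). Pou5f1 was not called between these stages (log2 change -0.71 ± 0.34, adjusted p = 0.198). Of 20 naive genes, 10 were lower, 9 were not called and 1, Tbx3, was higher (log2 change 3.19 ± 0.87, adjusted p = 0.045). Of 15 Nodal pathway genes, 6 were lower, 1 was higher and 8 were not called. Nodal itself had 1.31 and 0.92 in EB day 4 and 3.86 and 2.86 in EB day 3 (log2 change -2.25 ± 0.33, adjusted p = 0.00598). Without EB day 3 replicate 1, called members numbered 1 of the core list, 2 of the naive list and 2 of the Nodal list, and in the fit of the 4 arrays alone 0, 1 and 0.

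**Figure D5:**
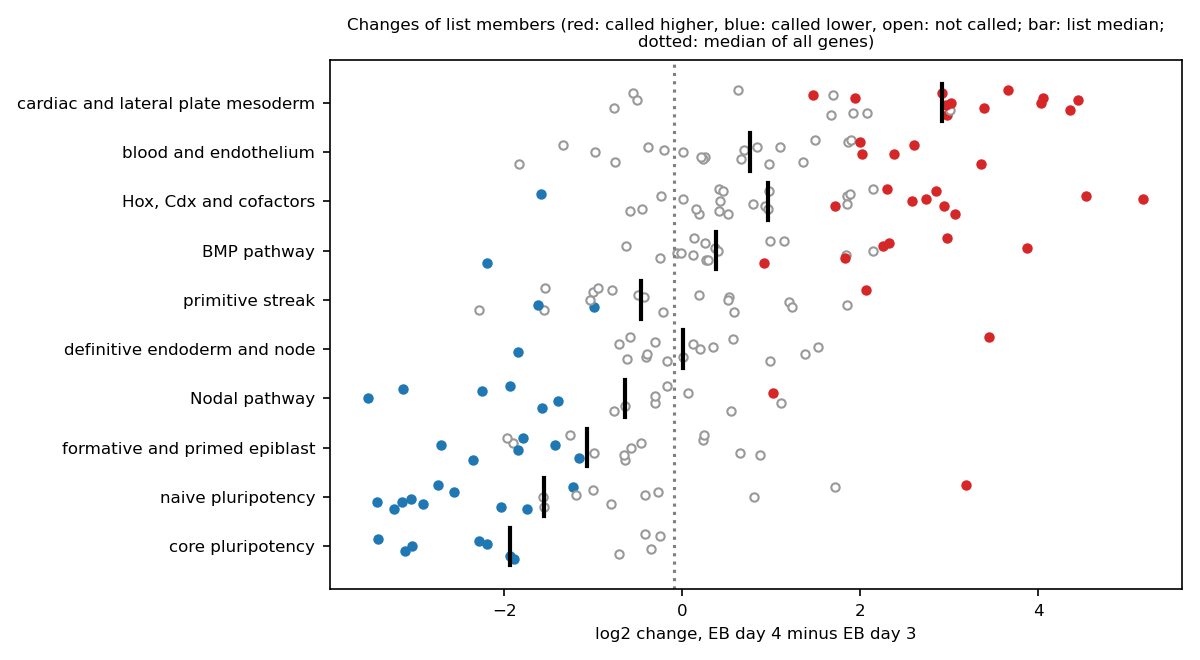
Log2 change of measured list members between EB day 4 and EB day 3 (horizontal axis) for 10 gene lists. Each point is a gene, red called higher, blue called lower and open not called; black bars are list medians, from 2.92 for cardiac and lateral plate mesoderm to -1.94 for core pluripotency, and the dotted line is the median of all genes (-0.09).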

How the data were processed

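RNA from mouse embryonic stem cells and their derivatives was hybridised to 12 Agilent arrays of 1 colour, per the file headers. The deposited scanner files hold the authors' processed intensity of each spot after background subtraction, with other flags for detection, saturation and outliers, per the file headers. The deposited series table holds values of the authors with an unstated scale, which followed the scanner intensity after scaling (r of 0.998 to 1.000) and had a median of 36.64 in each column. The submitters' processing notes name Feature Extraction 9.5.1.1, whereas the file headers name 10.5.1.1 (undifferentiated), 10.7.1.1 (EB day 4) and 10.7.3.1 (the other arrays).

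The log2 of each deposited intensity minus the 75th percentile of its array was analysed with limma 3.58.1 in R 4.3.3, with 6 group means fitted to 12 arrays and Benjamini-Hochberg adjustment. Spots of a probe were averaged, probes were kept where some group had 2 detected arrays (marked well above background), and the brightest probe stood for a gene. Of 41174 probes 26176 were kept. A fold against a group not well above background is a bound from the lowest signal well above background. Group comparisons covered EB day 4 against undifferentiated cells and against EB day 3. The named genes were the 4 markers, the 12 largest changes each way, up to 6 of each list and direction, and up to 6 genes whose probes differed most; Pou5f1, T, Nkx2-5, Klf2, Runx1, Cdh1 and Sox1 and others in lists of uncalled genes were added after their values were seen. The members and lists were chosen with earlier results of these data known. The labels do not state whether a clone number pairs samples across groups. The replicate differences of EB day 4 and undifferentiated cells correlated at -0.017, and those of all pairs of groups from -0.155 to 0.226. No pairing was seen, but such correlations cannot show that there was none. Alternatives were normexp background, quantile and median scaling, the authors' values, other filters, the mean of probes, a replicate block, the groups alone, a trended prior and leaving out arrays. The alternatives for list counts between EB day 4 and EB day 3 were chosen after seeing the data. Some genes that met these rules are not reported here. The number of arrays limits the precision.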

Additional observations from a re-analysis of the deposited data

Results flagged for a closer look

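By limma's test, the change from undifferentiated cells differed between EB day 4 and EB day 3 for 2254 of 17726 genes (12.7%). Of these, 9 are given here. They are the called markers and the largest changes each way among called listed genes with an array well above background and no overlap between the stages. The values below are EB day 4 minus EB day 3 in log2 units. Both stages were set against the same undifferentiated arrays. Hand1 differed by 4.45 (adjusted p = 0.0303), and Isl1 by 4.03 (adjusted p = 0.00451). Hoxb2 differed by 4.54 (adjusted p = 0.0454) and Hoxb5 by 5.18 (adjusted p = 0.0113). Hoxb5 had -2.64 and -0.18 in EB day 4 and -7.21 and -5.97 in EB day 3, where it was not well above background, so its difference is only a bound, at least 15.6-fold, and it was not called against undifferentiated cells. Plac1, a placental gene, differed by 5.2 (adjusted p = 0.00691), with 4.58 in EB day 4 and -0.62 in EB day 3 relative to undifferentiated cells. Esrrb differed by -3.43 (adjusted p = 0.0103), Lefty1 by -3.53 (adjusted p = 0.0142), Utf1 by -3.42 (adjusted p = 0.00744) and Dppa3 by -3.24 (adjusted p = 0.0200). The arrays of the 2 stages did not overlap in 67.8% of all genes. In all 9 genes both EB day 4 arrays lay on the same side of both EB day 3 arrays. That was required of them by the rule of choice, markers aside. Leaving out 1 array raised the adjusted p above 0.05 for each of these genes except Isl1, with a highest value of 0.208 for Hoxb2.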

How the results depend on the processing

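The number of genes called between EB day 4 and undifferentiated cells stayed within 1.5 times the reported 7234 under 9 of 10 alternatives (5479 to 7549) and was 13445, with 70.1% higher, without a filter on dim probes, where 27957 genes were tested. With each array left out in turn it ranged from 4657 to 5968. With normexp background correction it was 6236, with 58.9% of calls higher and a median change of 0.11 over all genes. With the replicate block it was 7212, and for EB day 4 against EB day 3 it was 2125, against 2254. That second count was 7600 without the filter and 239 with the 4 arrays fitted alone, and it ranged from 337 to 1616 with an array left out; with normexp 2997 were called, 59% of them higher. The share of genes whose probes all changed the same way was 56.75% without the filter and 59.18% to 60.01% with an array left out. Whether a clone number pairs samples across groups is not stated, so the block was not used for the reported values.

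Of 164 called genes with values in the text, 140 kept their call and direction under every alternative in which they were tested. There were 18 that lost it when an array was left out and 19 under another setting. A gene removed by a filter, such as that for probes well above background on all 4 arrays, was not tested under it. The mean of probes turned Hoxb6 (1.53), Myl3 (1.72), Runx1 (0.88), Nkx1-2 (0.17) and Acvr1b (-0.12), since their probes oppose each other, and normexp turned Nkx1-2 (0.05) and Sox1 (0.34), for which the cause was not tested. Of 290 list counts under other settings 5 moved by over 1.5 times, and of 116 with an array left out 15 did, in 7 lists. With 2 arrays a group and groups that differ in slide, scanner, scan day and software version, neither these alternatives nor the p-values bear on those differences. Fewer EB day 4 spots were well above background, which limits how far a fall could be measured.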
